A study of Mus musculus with 61 samples.

Results

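The nuclear-encoded subunits of respiratory complexes II to V form the set of genes described here, together with cytochrome c. A gene was taken when its symbol named one of the 4 succinate dehydrogenase subunits (Sdha to Sdhd), began with Uqcr, Cox4 to Cox8 or Atp5, or was Cyc1 or Cycs, when it did not carry the pseudogene ending -ps, and when at least 10 counts were found in 30 or more of the 61 libraries. This gave 46 genes of the 55011 in the count table. They were 4 genes of complex II, 9 of complex III, Cycs itself, 15 of complex IV and 17 of complex V. Another 4 symbols matched but were too low, and these were Cox6b2, Cox6c2, Cox7b2 and Cox8c, which reached 10 counts in 0, 15, 0 and 0 libraries. The member nearest the limit was Cox4i2, which passed in 58 libraries, and the other 45 members passed in all 61. The rule used the size of the counts in all libraries and no comparison between groups, but it was set with earlier results of these data known.

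Complex II (succinate dehydrogenase) feeds electrons from the citrate cycle into the ubiquinone pool, complex III (cytochrome bc1) passes them to cytochrome c, complex IV (cytochrome c oxidase) hands them to oxygen, and complex V (ATP synthase) uses the resulting proton gradient to make ATP. Complex II is encoded entirely in the nucleus, whereas complexes III, IV and V each also contain subunits made from the mitochondrial genome. Skeletal muscle fibres differ in their content of these complexes, oxidative fibres holding more than glycolytic ones, and several complex IV subunits exist as a muscle form and a form found in most other tissues.

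Gene expression was measured by bulk RNA sequencing of whole mouse muscle to ask how regulatory T cells (Tregs) shape the response of muscle to exercise. Wild-type C57BL/6J mice gave quadriceps and tibialis anterior (TA) from the same numbered animals, sedentary or at days 1, 2 and 7 after a bout of acute exercise, 3 libraries per group. In the acute Treg experiment, quadriceps came from Foxp3DTR+ mice, which carry the Foxp3-IRES-GFP.hDTR allele, and from Foxp3DTR- mice. The allele puts the human diphtheria toxin receptor under the Foxp3 locus, so that diphtheria toxin removes Foxp3-expressing cells throughout the animal. The toxin was given to both genotypes. There were 2 DTR+ and 3 DTR- libraries from sedentary mice, 3 and 3 at day 1 after exercise, and 2 and 2 at day 7. In the training experiment, toxin-treated DTR+ and DTR- mice were trained for 2 weeks or stayed sedentary, 3 quadriceps libraries per group. A further 3 quadriceps libraries came from trained, toxin-treated DTR+ mice given anti-IFNγ antibody every other day for 1 week, and 3 from such mice given IgG. Sedentary C57BL/6JN mice aged 24 months gave 2 libraries after anti-IFNγ and 2 after IgG, from a muscle that the labels do not name. The labels state neither the age of the other mice nor the background strain of the DTR mice. The animal numbers of the wild-type libraries mark separate mice, and for the other groups the labels say only that the libraries are separate samples, so that p-values measure the spread between these samples. Because whole tissue was sequenced, fewer cells of a type and less RNA per cell cannot be told apart.

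Libraries held 3359683 to 14445336 counts, and levels are given as CPM, the gene's counts scaled to a common library total. Fibre markers were abundant in every group, 8 of them summing to 72235 CPM or more. Foxp3 was too low to check the depletion, with 0 to 2 counts in the 19 DTR+ libraries, of which 16 had 0, and 0 to 9 counts in the 14 DTR- libraries, of which 7 had 0. Some libraries stood apart in a way that touches short transcripts, and 31 of the 46 members have transcripts under 1000 bases. Other genes with transcripts under 1000 bases took 13.2 to 14.5% of the counts in the 24 wild-type libraries. In the acute experiment they took 23.8 to 26.4% in the 4 DTR+ sedentary and day 7 libraries, against 17.3 to 20.5% in the DTR- libraries of those groups, and 15.4 to 16.3% in the 6 libraries of day 1. The training libraries lay between 13.3 and 15.9% except for sedentary DTR+ replicate 2, at 18.8%. The aged libraries spanned 7.09 to 23.5%. These shares include mitochondrially encoded genes. Over nuclear genes alone the share was 12.2 to 13.4% in the wild-type libraries. In the acute sedentary and day 7 libraries it was 20.5 to 22.6% in DTR+ and 14.8 to 17.3% in DTR-, and at day 1 13.9 to 15.0%. For the acute experiment, counts of calls and the named members at rest are also given from a fit in which each library's dependence on length and GC content was removed, and for training without the library.

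**Figure D1:**
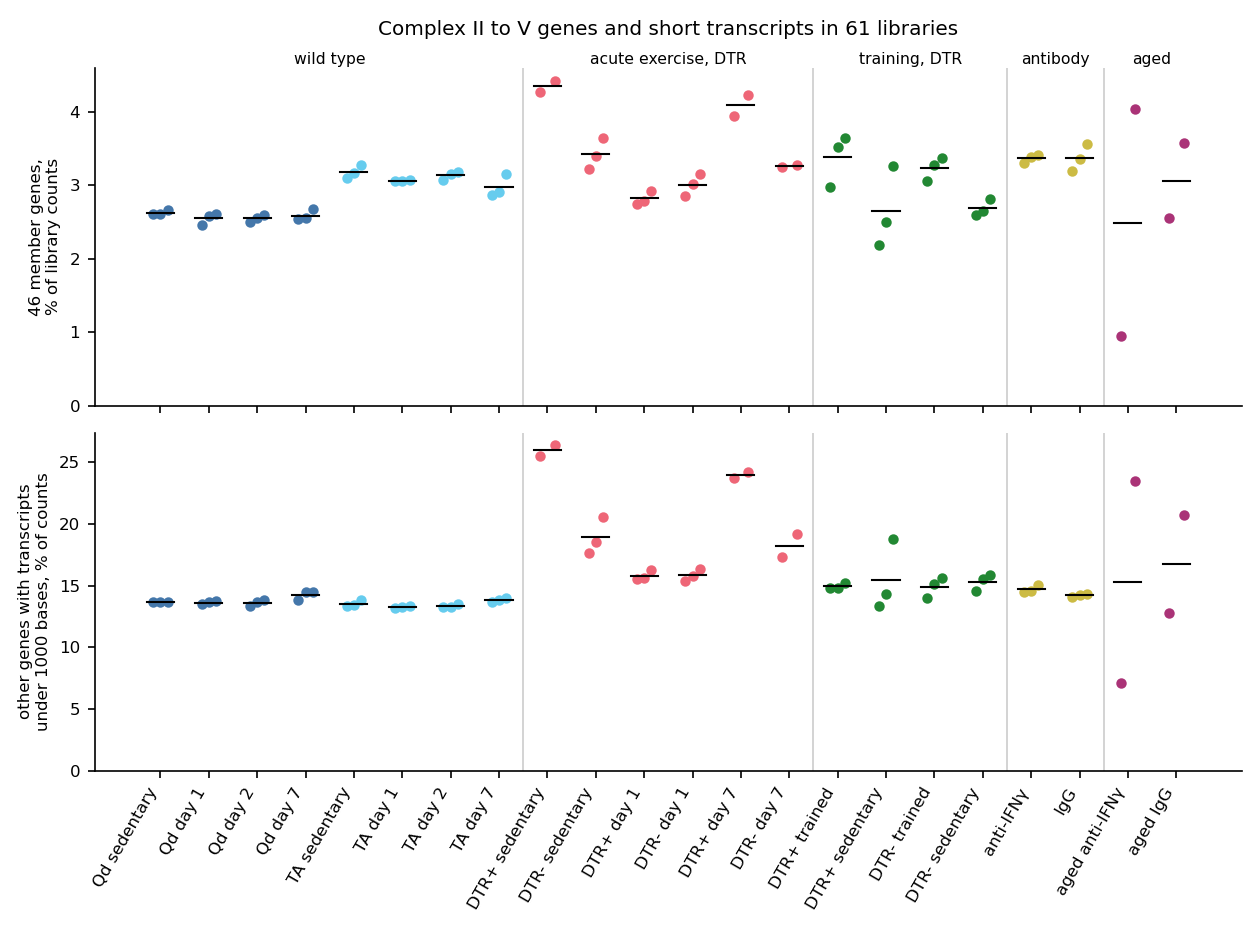
Share of library counts on the 46 genes of complexes II to V (top) and on all other genes with transcripts under 1000 bases (bottom), in percent, for each of the 61 libraries (points) with the group mean (line). The sedentary and day 7 DTR+ libraries of the acute experiment were high in both panels, with 3.95 to 4.43% of counts on the 46 genes and 23.8 to 26.4% on other short transcripts.

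Per kilobase of transcript, levels in sedentary wild-type muscle spanned a wide range among the members. Atp5b, the catalytic beta subunit of ATP synthase, was highest at 1868 CPM per kilobase in quadriceps and 2265 in TA. Cox4i1, the common form of a regulatory complex IV subunit, was second at 1692 in quadriceps and 2153 in TA, and Atp5a1, the alpha subunit of ATP synthase, came next at 1360 and 1759 in the same muscles. Uqcrc1, a core protein of complex III, had 1093 in quadriceps and 1361 in TA, and Cox6a2, the muscle form of a complex IV subunit, 1109 and 1276. At the low end was Cox4i2, the form of subunit 4 associated with lung and low oxygen, at 4.78 in quadriceps and 4.63 in TA. Atp5l at 24.7 and 25.7 and Cycs at 37.3 and 40.2 CPM per kilobase were the next lowest, but both have many near-identical pseudogene copies, and how reads matching several places were counted is not given in the sources used here. The 3 genes for the identical mature c subunit of ATP synthase (Atp5g1, Atp5g2 and Atp5g3) carry different leader sequences and were counted apart.

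Promoters of the 46 genes were searched for the motifs of factors known to drive respiratory genes. RefSeq promoter sequences (GRCm38.p6) were found for 35 members. The motif of nuclear respiratory factor 1 (NRF1, searched on both strands as GCGC, any base, then TGCGC) occurred in the 250 bases before the start in 7 of the 35, or 20%, against 4.23% of the 27025 genes with a promoter in the table. The GABPA motif CCGGAAGT occurred in 3 of 35 (8.57%, against 3.23% of all), the estrogen-related receptor motif TNAAGGTCA in 1 (2.86%, against 1.3%) and the YY1 motif AANATGGCG in 1 (2.86%, against 1.29%). A match describes letters in a window and is not evidence of binding. The 250 bases before the annotated start are shown for 3 members, chosen after the matches were known: Atp5h (chr11:115419920-115420169, minus strand), with NRF1 and GABPA matches, Sdha (chr13:74350241-74350490, minus strand), with 3 NRF1 matches, and Cox7a1 (chr7:30183921-30184170, plus strand), with none. They are printed 5′ to 3′ on the gene's strand, with motif matches in capitals.

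Atp5h: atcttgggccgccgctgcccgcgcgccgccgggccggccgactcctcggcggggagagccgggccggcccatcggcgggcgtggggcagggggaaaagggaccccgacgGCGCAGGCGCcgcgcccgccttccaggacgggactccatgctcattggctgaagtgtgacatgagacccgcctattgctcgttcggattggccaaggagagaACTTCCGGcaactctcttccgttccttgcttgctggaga

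Sdha: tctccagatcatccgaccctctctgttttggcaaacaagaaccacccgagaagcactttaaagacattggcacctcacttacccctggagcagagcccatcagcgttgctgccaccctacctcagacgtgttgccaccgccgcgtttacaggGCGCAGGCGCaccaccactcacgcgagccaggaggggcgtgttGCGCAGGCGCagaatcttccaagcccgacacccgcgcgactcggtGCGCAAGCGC

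Cox7a1: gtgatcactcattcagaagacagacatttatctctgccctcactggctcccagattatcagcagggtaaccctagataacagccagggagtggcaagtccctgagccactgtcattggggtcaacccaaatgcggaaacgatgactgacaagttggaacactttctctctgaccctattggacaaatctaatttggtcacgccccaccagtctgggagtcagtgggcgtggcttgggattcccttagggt

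Quadriceps of wild-type mice held less of nearly the whole set than TA of the same animals. Averaged over the sedentary mice and the 3 days after exercise, 36 of the 46 members were called lower in quadriceps and 0 called higher. Of the 13819 genes tested, 4.83% were called lower and 5.38% called higher. Counting fold changes above 0 whether called or not, 3 members were higher. The median member differed by -0.23 on the log2 scale, with 0.01 for the median of all genes. Lower calls were made in all 4 complexes, for 3 of 4 genes of complex II, 8 of 9 of complex III, 11 of 15 of complex IV and 14 of 17 of complex V. The difference was small in each gene. In 29 members the quadriceps was lower in all 12 animals, a count for which the share over all genes was not computed.

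In complex V, Atp5a1 was the gene with the smallest p. It had a lowest, median and highest value of 3224, 3339 and 3408 CPM in the 12 quadriceps libraries, against 3886, 4370 and 4591 CPM in the 12 TA libraries, and the muscles did not overlap. The log2 fold change was -0.39 ± 0.03 (SE; edgeR quasi-likelihood test, adjusted p = 1.93e-11). Atp5h, a subunit of the peripheral stalk, had 194, 211 and 227 CPM in quadriceps and 244, 278 and 312 CPM in TA, a fold change of -0.42 ± 0.04 (adjusted p = 2.18e-08) that was the largest among the called members. Atp5b differed by -0.32 and Atp5c1, the gamma subunit of the rotor, by -0.33.

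In complex II, Sdha, the flavoprotein that oxidises succinate, had 1153, 1260 and 1341 CPM in quadriceps and 1420, 1496 and 1577 CPM in TA, again without overlap (-0.28 ± 0.03, adjusted p = 2.43e-08). Sdhb, the iron-sulphur subunit, differed by -0.27 and the membrane anchor Sdhd by -0.26, while the other anchor, Sdhc, missed the threshold at -0.10 ± 0.04 (adjusted p = 0.117). In complex III, Uqcrc1 had 1651, 1712 and 1902 CPM in quadriceps and 2019, 2180 and 2409 CPM in TA (-0.35 ± 0.03, adjusted p = 1.70e-08). The Rieske iron-sulphur protein Uqcrfs1 was lower by -0.27 and cytochrome c1 (Cyc1) by -0.26. Cycs, the mobile carrier itself, was not called (-0.11 ± 0.06, adjusted p = 0.275).

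In complex IV, Cox4i1 had 1129, 1241 and 1289 CPM in quadriceps and 1331, 1516 and 1689 CPM in TA (-0.32, adjusted p = 3.65e-08). The muscle isoforms Cox7a1 (-0.28) and Cox6a2 (-0.27) were lower too. The 4 genes of complex IV that were not called were Cox4i2 at -0.59 ± 0.24, and the non-muscle forms or relatives Cox6a1 at 0.10 ± 0.08, Cox8a at 0.05 ± 0.06 and Cox7a2l at 0.04 ± 0.05.

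**Figure D2:**
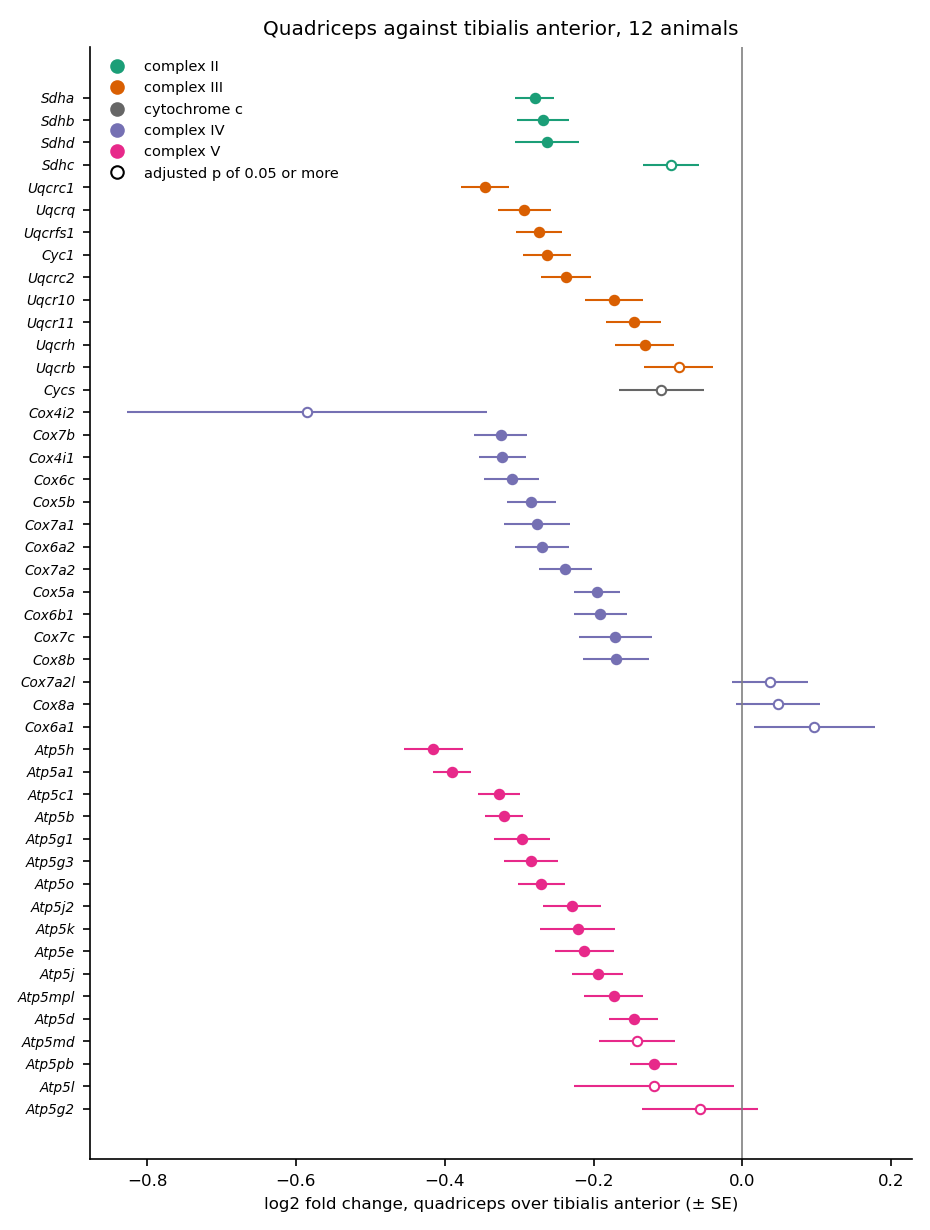
Fitted log2 fold change of each member, quadriceps over tibialis anterior, averaged over the sedentary and 3 exercised groups of 12 animals, with bars of 1 standard error, coloured by complex. Filled points are the 36 members with an adjusted p under 0.05, and all of them lie left of 0.

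The other genes of the pathway went partly along. Of the 6 mitochondrially encoded subunits of complexes III to V, 5 were lower in quadriceps (median -0.30), among them mt-Co1 at -0.26 (adjusted p = 6.74e-07), mt-Cytb at -0.27 and mt-Co2 at -0.45. Of 33 assembly factors tested, 4 were lower and 0 higher, led by the ATP synthase assembly factor Fmc1 at -0.46 (adjusted p = 0.000113), the mitochondrial mRNA-binding protein Lrpprc at -0.27 and the haem A farnesyltransferase Cox10 at -0.29. Of 12 regulators, 1 was lower, the coactivator Ppargc1a at -0.41 ± 0.09 (adjusted p = 0.00359). Markers of other fibres and cells differed between the same libraries. All 7 slow-fibre markers were higher in quadriceps, summing to 609 to 1246 CPM against 58.2 to 184 CPM in TA. Macrophage markers were higher for 7 of 8 (115 to 196 CPM against 63.3 to 117 CPM), adipocyte markers for 4 of 5 tested (122 to 236 CPM against 47.0 to 92.2 CPM), and 3 of 4 endothelial markers were lower. The part of these in the result was not tested. Between the sedentary groups of 3 libraries, 15 members were called lower (background 0.716%). This contrast was taken unpaired from the fit of all wild-type libraries. The count was 5 to 13 on leaving out a library and 9 each with the length and GC trend removed and with no filter. In 33 members the sedentary groups did not overlap, all lower (background 8.17%).

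Acute exercise of wild-type mice brought no member past the threshold in either muscle on any day. In quadriceps the median member stood at -0.02, -0.06 and 0.01 on the log2 scale at days 1, 2 and 7 relative to sedentary mice, and in TA at -0.04, -0.01 and -0.05. The edgeR test called 0 members in each of these 6 comparisons, as did DESeq2, where the share of all genes called was 0.582%, 0.299% and 0.214% of 13062 in quadriceps and 0.0552%, 0.063% and 0.0158% of 12692 in TA. At an unadjusted p under 0.05 there were 0, 5 and 2 members in quadriceps and 3, 1 and 0 in TA, counts for which the share over all genes was not computed. The data were precise enough to bound most members: with a median SE of 0.08, between 43 and 45 of the 46 lay within 0.5 on the log2 scale at 2 SE in each comparison.

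Small shifts were nevertheless one-sided at some times. In TA at day 7, 18 members had libraries that did not overlap with those of sedentary mice, all lower (background lower 8.55%). These ranges are of CPM, on which the median of all genes was -0.07 and that of the members -0.11. On the fitted scale the 18 lay between -0.14 and -0.0020. In quadriceps at day 2 there were 18, of which 16 were lower (background lower 7.63%). Cox7a1, the muscle isoform of subunit 7a of complex IV, is the extreme case in TA at day 7, with the largest fitted fall of the 18 (-0.14). It had 240, 233 and 246 CPM in sedentary mice, 208, 206 and 200 CPM at day 1, 220, 213 and 203 CPM at day 2, and 209, 199 and 214 CPM at day 7. All 9 exercised libraries were below all 3 sedentary ones, with no adjusted p under 0.05. In quadriceps the sedentary values were 191, 180 and 213 CPM, against which day 2 was lower at 167, 167 and 162 CPM, and day 1 (159, 192 and 187 CPM) and day 7 (185, 176 and 193 CPM) overlapped. Tests of whether the exercise response differed between the muscles called 0 members on each day (background 0.0434%, 0.00724% and 0.0796% at days 1, 2 and 7), with 0, 1 and 1 members at an unadjusted p under 0.05 and 0 by DESeq2.

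The acute Treg experiment held the largest differences. In sedentary mice given toxin, 32 of the 46 members were called higher in DTR+ than in DTR- quadriceps and 3 called lower. Of 14245 genes, 12.1% were called higher and 14.5% called lower. The median member was higher by 0.88 on the log2 scale, and the median of all genes stood at -0.06. Higher calls were made for 2 of 4 genes of complex II, 5 of 9 of complex III, Cycs, 11 of 15 of complex IV and 13 of 17 of complex V. These are the libraries that differ in short transcripts, so values with the length and GC trend removed are given as well.

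Cycs had 631 and 591 CPM in the DTR+ libraries and 282, 234 and 197 CPM in the DTR- libraries, a log2 fold change of 1.67 ± 0.17 (adjusted p = 1.45e-06). Cox7a1 had 944 and 889 CPM in DTR+ and 432, 414 and 327 CPM in DTR- mice (1.54 ± 0.15, adjusted p = 7.41e-07). Both DTR+ libraries were above all DTR- libraries in each case, and with the trend removed the fold changes were 1.75 for Cycs and 1.48 for Cox7a1. Cox6a2, the muscle isoform of subunit 6a, had 2038 and 1815 CPM in DTR+ and 1089, 962 and 798 CPM in DTR- mice (1.33, adjusted p = 2.09e-06), and 1.02 with the trend removed. Sdhb had 2235 and 2002 CPM in DTR+ and 1402, 1249 and 1222 CPM in DTR- mice (1.02 ± 0.14, adjusted p = 1.78e-05), and 1.13 with the trend removed. Its transcript is 1142 bases long, and that of Cycs 3123 bases. Of the 15 members of 1000 bases or more, 6 were called higher, while Cyc1 and Sdha were called lower. Transcripts under 1500 bases also took more of the counts in DTR+ libraries, 52.8 to 56.1% at rest and day 7. In the DTR- libraries of those groups they took 39.4 to 46.1%. How reads matching the pseudogene copies of Cycs were counted is not given. The part of short-transcript content in these rises was not tested.

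Several small subunits were among the members called higher. Uqcr10, a small subunit of complex III, had 906 and 837 CPM in DTR+ and 472, 417 and 352 CPM in DTR- mice (1.38 ± 0.16, adjusted p = 4.15e-06). Atp5k, the e subunit of ATP synthase, had 504 and 425 CPM in DTR+ and 228, 215 and 164 CPM in DTR- mice (1.51 ± 0.18). Uqcr11 was higher by 1.12 and Atp5j, coupling factor 6 of ATP synthase, by 1.17. After removal of the trend these 4 were still called, at 1.39 for Uqcr10, 1.38 for Atp5k, 1.27 for Uqcr11 and 0.75 for Atp5j. Members with no call included the abundant core proteins, with Uqcrc1 at 0.08 ± 0.14, Uqcrc2 at 0.23 ± 0.14, Uqcrfs1 at 0.27 ± 0.15, Atp5b at 0.17 ± 0.12 and Atp5a1 at -0.25 ± 0.12. With the trend removed Uqcrc1 (0.71, adjusted p = 0.00546) and Atp5b (0.46, adjusted p = 0.0154) were called higher, while Uqcrc2 stood at 0.13, Uqcrfs1 at 0.02 and Atp5a1 at 0.17 without a call.

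The 3 members called lower in DTR+ mice carry central functions of complexes II, III and V. Cyc1 had 546 and 562 CPM in DTR+ and 1046, 1130 and 1171 CPM in DTR- mice (-0.70 ± 0.15, adjusted p = 0.00137). Atp5d, the delta subunit of the ATP synthase rotor, had 185 and 240 CPM in DTR+ and 478, 461 and 464 CPM in DTR- mice (-0.83 ± 0.16, adjusted p = 0.000476). Sdha had 856 and 893 CPM in DTR+ and 1340, 1435 and 1446 CPM in DTR- mice (-0.38 ± 0.13, adjusted p = 0.0405). With the trend removed Atp5d alone of these was still called lower (-0.65, adjusted p = 0.00623), while Cyc1 stood at -0.26 (adjusted p = 0.283) and Sdha at -0.03 (adjusted p = 0.933).

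The fold change was larger in members with shorter transcripts. Among the 31 members under 1000 bases, 26 were called higher and the median was 1.08. Among the 15 longer ones 6 were called higher and the median was 0.27. Over the 46 members the fold change and log length had a Pearson r of -0.47 and a Spearman rho of -0.53, as a description of genes that share these libraries. Genes outside the set had medians of 0.63 under 600 bases, 0.48 from 600 to under 1000, 0.06 from there to under 2000, -0.36 from there to under 3000 and -0.15 beyond. With the trend on length and GC removed, 26 members were called higher and 1 called lower (background 11.7% higher and 6.62% lower). The median was 0.64 against 0.11 for all genes, and short and long members had medians of 0.67 and 0.30. The same members accounted for 24 of the calls in both fits.

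**Figure D3:**
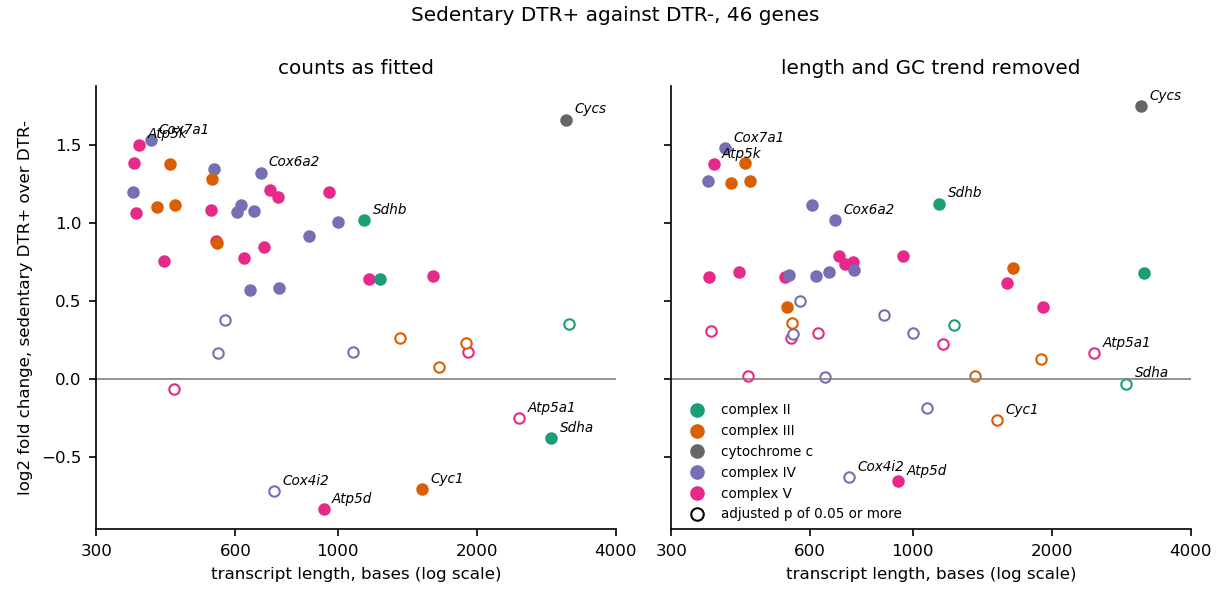
Log2 fold change of each member in sedentary quadriceps, DTR+ over DTR-, against transcript length in bases on a log scale, from the counts as fitted (left) and with the length and GC trend removed (right). Filled points have an adjusted p under 0.05, and Cycs and Cox7a1 stay near 1.7 and 1.5 in both panels.

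Counts on mitochondrially encoded genes moved with the groups, at 21.4 to 23.5% of counts in sedentary DTR+ libraries and 7.89 to 12% in sedentary DTR- libraries. All 6 mitochondrially encoded subunits of complexes III to V were called higher (median 1.59), with mt-Cytb at 2.12, mt-Co1 at 1.32 and mt-Atp6 at 1.59. Assembly factors were higher for 14 of 33 and lower for 2, led by Fmc1 at 1.57 (adjusted p = 3.67e-06), the complex II factor Sdhaf4 at 1.32 and the complex III factor Uqcc3 at 1.09. Regulators went both ways, 2 of 12 higher and 3 lower, with Yy1 at 1.19, Esrra at -0.997 and Nrf1 at -1.08. Of the 8 fibre markers 6 were higher and 1 lower on the fitted scale, and their sum as a share of the library was 190533 to 202675 CPM in DTR+ and 209953 to 219705 CPM in DTR- mice. The DTR+ libraries also held fewer detected genes, and the scaling factors of the groups differed by -0.31 on the log2 scale. Scaled to the library total alone, the median member was higher by 0.57 with all genes at -0.36, and 6 members without a call changed sign (Atp5b, Cox7a2l, Cox8a, Uqcrc1, Uqcrc2 and Uqcrfs1). The part of RNA quality or library content in the difference was not tested.

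At day 7 after exercise the picture between the genotypes was alike. In DTR+ mice 32 members were called higher and 2 called lower than in DTR- mice (background 11.3% higher and 14% lower), with a median of 0.82. Cycs had 478 and 434 CPM in DTR+ and 160 and 201 CPM in DTR- mice (1.62 ± 0.20), and Cox7a1 had 822 and 709 CPM in DTR+ and 319 and 320 CPM in DTR- mice (1.55 ± 0.17, adjusted p = 3.43e-06). The 2 lower members were again Atp5d, with 243 and 204 CPM in DTR+ and 638 and 482 CPM in DTR- mice (-1.04 ± 0.17), and Cyc1, with 497 and 373 CPM in DTR+ and 995 and 1066 CPM in DTR- mice (-0.96 ± 0.16). No DTR+ library overlapped a DTR- library for these 4 genes. All 4 were still called after removal of the trend, at 1.76 for Cycs, 1.61 for Cox7a1, -0.70 for Atp5d and -0.60 for Cyc1. In that fit 25 members were called higher and 2 called lower (background 12% and 5.63%), and the median was 0.59. A dependence on length remained among the members, with medians of 0.79 in short and 0.18 in long ones and a Spearman rho of -0.41. Scaled to the library total alone the median member was higher by 0.54, with all genes at -0.39. T and NK cell markers summed to 19.9 to 66 CPM in DTR+ and 4.01 to 7.25 CPM in DTR- mice at day 7, and macrophage markers to 296 to 530 and 216 to 254 CPM in the same groups. Their part in the result was not tested.

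At day 1 no member differed between the genotypes beyond the spread of the libraries. The edgeR test called 0 members (background 0% of all genes), 0 had an unadjusted p under 0.05 and DESeq2 called 0. The median was -0.08, and 42 members lay within 0.5 on the log2 scale at 2 SE. Cox7a1 had 199, 206 and 226 CPM in DTR+ and 240, 201 and 236 CPM in DTR- mice, Cycs 149, 132 and 156 CPM in DTR+ and 189, 151 and 168 CPM in DTR- mice, and Cyc1 914, 867 and 964 CPM in DTR+ and 1092, 897 and 973 CPM in DTR- mice. In all 3 genes the genotypes overlapped. There were 6 members whose libraries did not overlap, all lower in DTR+ (background lower 6.22%).

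Against sedentary mice of the same genotype, day 1 libraries were low in most members. In DTR+ mice 39 members were called lower and 1 called higher at day 1 (background 18.1% lower and 24.3% higher), with a median of -1.37 against 0.28 for all genes. Cox7a1 fell by 2.66 on the log2 scale (adjusted p = 2.81e-10), Cycs by 2.60 and Sdhb by 1.78, and the member that rose was Atp5d (0.93, adjusted p = 6.47e-05). In DTR- mice 34 members were called lower and 0 called higher (background 8.24% lower and 8.16% higher), with a median of -0.56 against 0.09 for all genes. There Cox7a1 differed by -1.05 ± 0.14 (adjusted p = 6.85e-05), Cycs by -0.74, Uqcrfs1 by -0.76 and Cyc1 by -0.42. With the trend removed the counts of calls were 40 lower and 1 higher in DTR+ mice (background 24.1% and 11%) and 30 lower in DTR- mice (background 11.5%), with medians of -1.23 and -0.55. Short and long members then had medians of -1.33 and -0.76 in DTR+ and of -0.61 and -0.48 in DTR- mice. In that fit Cox7a1 stood at -2.64 in DTR+ and -1.06 in DTR- mice, Cycs at -3.14 and -1.13 in the same order, and Atp5d at 0.78 in DTR+ mice. Scaled to the library total alone, the median was -0.83 in DTR+ and -0.31 in DTR- mice, with all genes at 0.81 and 0.34, and Cox7a2l, a complex IV relative involved in supercomplexes and called lower in DTR+ mice (-0.37, adjusted p = 0.0441), changed sign. Markers of other cells shifted between the same libraries. In DTR+ mice endothelial markers summed to 222 to 243 CPM at day 1 against 148 to 164 CPM at rest, fibro-adipogenic progenitor markers to 1035 to 1321 against 1521 to 1758 CPM, and fibre markers to 162998 to 176089 against 190533 to 202675 CPM. In DTR- mice they summed to 197 to 256 against 136 to 171 CPM for endothelium, 1218 to 1478 against 1503 to 1869 CPM for the progenitors, and 159473 to 171393 against 209953 to 219705 CPM for fibres. Their part in the result was not tested.

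The fall at day 1 was deeper in DTR+ than in DTR- mice by a test of the difference itself. It called 33 members, 31 with a lower and 2 with a higher response in DTR+ mice (background 6.54% and 8.8%). Cycs differed by -1.85 ± 0.23 (adjusted p = 3.64e-05), Cox7a1 by -1.61 ± 0.20 (adjusted p = 3.67e-05), Uqcr10 by -1.48 and Cox6a2 by -1.35, while Atp5d (0.77, adjusted p = 0.0135) and Cyc1 (0.62, adjusted p = 0.0362) went the other way. With the trend removed 22 members were called with a lower and 0 with a higher response (background 5.52% and 3.02%), and Atp5d and Cyc1 were no longer called, at 0.60 and 0.22. This test shares the sedentary libraries with the comparisons at rest, and the genotypes had no call between them at day 1. Wild-type quadriceps, fitted separately, had no call at day 1, and the difference between the experiments was not tested. The day 1 libraries differ from the sedentary ones of both genotypes in short-transcript share, genes detected and depth. Genes detected were 21211 to 26596 at day 1, against 14701 to 15306 in sedentary and day 7 DTR+ and 16508 to 18494 in sedentary and day 7 DTR- libraries. Library totals in the same order were 9653120 to 14445336, 7694604 to 8988248 and 4554630 to 9558470 counts. Day, depth and library content cannot be told apart here.

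Between day 7 and rest, edgeR called 0 members in either genotype (background 1.01% in DTR+ and 0.00702% in DTR-), as did DESeq2. The median was -0.21 in both, with 7 members in DTR+ and 11 in DTR- mice at an unadjusted p under 0.05. For these unadjusted counts the share over all genes was not computed. The test of a difference between the genotypes in this response ended with 0 calls (background 0.0772%), 0 by DESeq2 and 1 at an unadjusted p under 0.05.

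Further subunits, though not all of those remaining, are given for 3 comparisons, as log2 fold changes with no trend removed. The comparisons are quadriceps over TA, sedentary DTR+ over DTR- mice, and day 1 over rest in DTR+ mice. The log2 fold changes of Cox5b, a zinc-binding complex IV subunit, were -0.28, 0.92 and -1.76 in that order, and those of Cox5a, its partner facing the matrix, -0.20, 0.57 and -1.10. The small complex IV subunits Cox6b1 (-0.19, 1.12 and -1.95), Cox6c (-0.31, 1.07 and -1.66), Cox7b (-0.33, 1.01 and -1.70) and Cox7c (-0.17, 1.35 and -2.07) were called in each of the 3. So was Cox7a2, the general isoform beside Cox7a1, at -0.24, 1.08 and -2.0. Cox6a1 (0.10, 0.38 and -1.18), Cox8a (0.05, 0.17 and -0.78) and Cox7a2l (0.04, 0.18 and -0.37) were called at day 1 alone, and their difference from Cox7a2 was not tested. With the length and GC trend removed, Cox6b1 (0.66), Cox6c (1.12), Cox7c (0.67) and Cox7a2 (0.69) were still called higher at rest, while Cox5b (0.41), Cox5a (0.02) and Cox7b (0.30) were not. At day 1 those 7, Cox6a1 and Cox8a were still called lower, between -1.69 and -0.45, and Cox7a2l reversed to 0.13 without a call.

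In complex V, the c-subunit genes had unlike values. Atp5g1 (-0.30, 0.85 and -1.84) and Atp5g3 (-0.28, 1.21 and -1.27) were called in the same 3 comparisons, whereas Atp5g2 stood at -0.06, -0.06 and -0.04 with no call, and the difference between the genes was not tested. Atp5o, which links the head to the stalk (-0.27, 1.09 and -1.93), Atp5j2 in the membrane part (-0.23, 1.20 and -2.07) and Atp5e of the rotor (-0.21, 0.76 and -1.30) were called in all 3. The catalytic pair Atp5a1 and Atp5b was called between the muscles alone, with 0.06 ± 0.12 and -0.08 ± 0.12 at day 1 against rest. With the trend removed Atp5g1 (0.79), Atp5g3 (0.74), Atp5o (0.66), Atp5j2 (0.79) and Atp5e (0.69) were still called higher at rest, and were lower at day 1 by -1.72, -0.68, -1.42, -1.52 and -1.25. In that fit Atp5a1 (-0.49, adjusted p = 0.00908) and Atp5b (-0.34, adjusted p = 0.0440) were also called lower at day 1, and Atp5g2 was not called, at 0.02 and -0.19. In complex III, Uqcrq (-0.29, 1.11 and -1.92) was called in all 3, and the core proteins Uqcrc1 and Uqcrc2 were called between the muscles (-0.35 and -0.24) and at day 1 (-0.89 and -0.87) but not between the genotypes at rest. After trend removal Uqcrq stood at 1.26 at rest and -2.16 at day 1, Uqcrc1 at 0.71 and -1.54, and Uqcrc2 at 0.13, without a call, and -0.75. These comparisons share libraries, so the calls are not independent of each other.

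After 2 weeks of training the values of most members were higher without passing the threshold. In DTR- mice 44 of 46 members had a fold change above 0, trained over sedentary quadriceps. The median was 0.21 and that of all genes 0.01. The edgeR test called 0 members (background 0.103% of 12579 genes), DESeq2 called 0 and 1 had an unadjusted p under 0.05. In 35 members the 3 trained libraries were all above the 3 sedentary ones, and in 0 all below (background 10.9% above), on CPM, where the median of all genes was 0.06. The 46 genes together summed to 30639 to 33788 CPM in trained and 26023 to 28162 CPM in sedentary DTR- mice. Other markers were also apart between these groups. Endothelial markers summed to 369 to 395 CPM in trained and 259 to 282 CPM in sedentary DTR- mice, macrophage markers to 275 to 357 and 189 to 208 CPM, and fibre markers to 156392 to 162391 and 167345 to 174488 CPM. Their part in the result was not tested.

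In DTR+ mice 37 members had a fold change above 0 after training, called or not, with a median of 0.18 against -0.04 for all genes. The edgeR test called 0 (background 2.21%), and DESeq2 called 2. At an unadjusted p under 0.05 there were 7, a count for which the share over all genes was not computed. The result turned on sedentary replicate 2, the library with a high share of short transcripts. Sdhb had 1067, 1314 and 1229 CPM in trained and 788, 1165 and 607 CPM in sedentary DTR+ mice, and 1165 is replicate 2. Cox7a1 had 221, 330 and 314 CPM in trained and 173, 309 and 151 CPM in sedentary mice, again with replicate 2 high among the sedentary values.

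Without that library, a choice made after seeing the data, 33 members were called higher in trained DTR+ mice and 0 called lower (background 2.92% higher and 3.59% lower). A fold change above 0, called or not, was seen for 45 of the 46. The median was 0.59, against 0.003 for all genes. Calls covered all 4 genes of complex II, 7 of 9 of complex III, Cycs, 9 of 15 of complex IV and 12 of 17 of complex V. Sdhb differed by 0.83 ± 0.14 (adjusted p = 0.00257) and Atp5g3, a c-subunit gene of the ATP synthase ring, by 1.02 ± 0.18 (adjusted p = 0.00292), with 527, 702 and 652 CPM in trained and 350 and 285 CPM in the remaining sedentary mice. Uqcrq, a small subunit of complex III, had 378, 494 and 501 CPM in trained and 291 and 261 CPM in sedentary mice (0.77 ± 0.15, adjusted p = 0.00454). Atp5b differed by 0.54, Atp5a1 by 0.51, Sdha by 0.44 and Cycs by 0.63. The members with no call included Cox6a2 at 0.32 ± 0.14, Cox6a1 at 0.23 ± 0.20 and Atp5g2, which was listed at -0.06 ± 0.24. Leaving out another sedentary DTR+ library gave 0 calls, with medians of 0.07 without replicate 1 and -0.01 without replicate 3. Sedentary DTR+ replicate 3, kept in the fit without replicate 2, had the fewest counts of the series (3359683). It also had the lowest share of counts on the 46 genes among the training libraries, 2.19%. In the fit without replicate 2, 0 members had a fold change above 0 in sedentary DTR+ over sedentary DTR- mice. The part of this low baseline in the 33 calls was not tested.

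**Figure D4:**
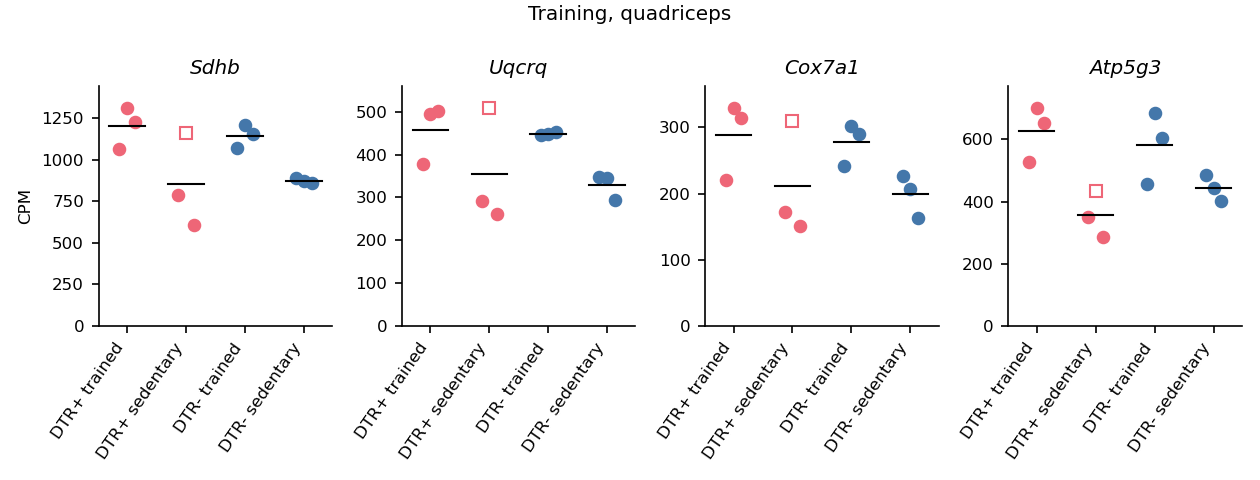
Levels of Sdhb, Uqcrq, Cox7a1 and Atp5g3 in CPM in each quadriceps library of the training experiment, trained and sedentary DTR+ (red) and DTR- mice (blue), with group means as lines. The open square is sedentary DTR+ replicate 2, at 1165 CPM for Sdhb where the other 2 sedentary DTR+ libraries have 788 and 607 CPM.

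Between the genotypes no member passed the threshold in the training experiment. Sdhb had 1067, 1314 and 1229 CPM in trained DTR+ and 1070, 1211 and 1155 CPM in trained DTR- mice, and Atp5b had 4183, 5183 and 4828 CPM in trained DTR+ and 4209, 4494 and 4511 CPM in trained DTR- mice. The groups overlapped in both genes. The edgeR test called 0 members between the genotypes in trained mice (background 0.89%) and in sedentary mice (background 0.0477%), and 0 in the test of whether training acted differently (background 0.27%). DESeq2 called 0 in each, and 0 members had an unadjusted p under 0.05 in any of the 3. The intervals were wide, since 13 members lay within 0.5 at 2 SE between trained DTR+ and DTR- mice and 0 in the test of the difference. Without replicate 2 these tests still called 0 (background 1.46% in trained mice, 0.023% in sedentary mice and 0.429% for the difference), with a median difference in response of 0.35 and a sedentary DTR+ minus DTR- median of -0.25. The regulator Ppargc1a, a coactivator of respiratory genes, had 59.6, 50.7 and 61.8 CPM in trained and 41.7, 14.9 and 37.5 CPM in sedentary DTR+ mice (0.88 ± 0.25, adjusted p = 0.0738), with 14.9 in replicate 2. Of the pathway lists, 0 assembly factors, mitochondrially encoded subunits or regulators were called after training in either genotype.

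In trained DTR+ mice given anti-IFNγ antibody no member passed the threshold against IgG, and most were bounded closely. The edgeR test called 0 members between anti-IFNγ and IgG (background 1.35% of 11742 genes), DESeq2 called 0 and 3 had an unadjusted p under 0.05. The median was 0.02 with a median SE of 0.09, and 43 members lay within 0.5 on the log2 scale at 2 SE. In 7 members the libraries did not overlap (background 15.2%). One of them was Uqcr11, a small complex III subunit, with 460, 446 and 464 CPM after anti-IFNγ and 493, 544 and 586 CPM after IgG (-0.24 ± 0.09, adjusted p = 0.305). Slow-fibre markers summed to 445 to 936 CPM after anti-IFNγ and 1102 to 1235 CPM after IgG, with 2 of 7 called lower, and macrophage markers to 209 to 328 and 364 to 405 CPM in the same groups, with 1 of 8 called lower.

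In aged muscle the 4 libraries were too unlike to compare. The 46 genes took 4.03 and 0.944% of counts after anti-IFNγ and 2.56 and 3.58% after IgG. Sdhb had 1655 and 168 CPM after anti-IFNγ and 735 and 1215 CPM after IgG. The lowest and the highest library thus belonged to the same group. The test called 0 members (background 0%), but with a median SE of 1.31 it could bound none of the 46 even to 1 on the log2 scale.

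Where complex IV has a muscle and a general isoform, their balance can be read within a library. Per length, Cox6a2 made up 94.2 to 98.1% of Cox6a2 plus Cox6a1 over the 61 libraries, with a median of 96.0%. Cox8b made up 85.4 to 96.2% of Cox8b plus Cox8a, and Cox4i2 0.0558 to 0.456% of Cox4i2 plus Cox4i1. Cox7a1 was the isoform that shared its place most evenly, at 36.0 to 63.2% of Cox7a1 plus Cox7a2, with a median of 51.1%.

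The Cox7a1 share differed between groups by a few points. In the acute experiment it was 63.0 ± 0.332% in DTR+ and 55.1 ± 2.19% in DTR- sedentary mice (SD, n = 2 and 3), 52.1 ± 2.13% and 50.4 ± 1.00% in DTR+ and DTR- mice at day 1 (n = 3 each), and 59.9 ± 1.04% and 53.1 ± 2.34% in DTR+ and DTR- mice at day 7 (n = 2 each). In training it ranged from 53.3 to 58.0% in trained and from 49.3 to 51.1% in sedentary DTR+ mice, without overlap, and sedentary replicate 2 had the lowest share, 49.3%. Trained DTR- mice had 52.0 to 57.0% and sedentary DTR- mice 46.3 to 54.6%, which overlapped. After anti-IFNγ it was 51.7 to 53.9%, against 55.2 to 60.1% after IgG, without overlap. The Cox8b share followed the acute groups, at 96.2% in sedentary DTR+ and 92.5 ± 0.740% in sedentary DTR- mice, and 95.9% and 92.2% in DTR+ and DTR- mice at day 7. The shares were not tested, and Cox7a1 (393 bases) and Cox8b (360 bases) have shorter transcripts than Cox7a2 (659 bases) and Cox8a (550 bases). The part of short-transcript content in the shares was not tested.

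**Figure D5:**
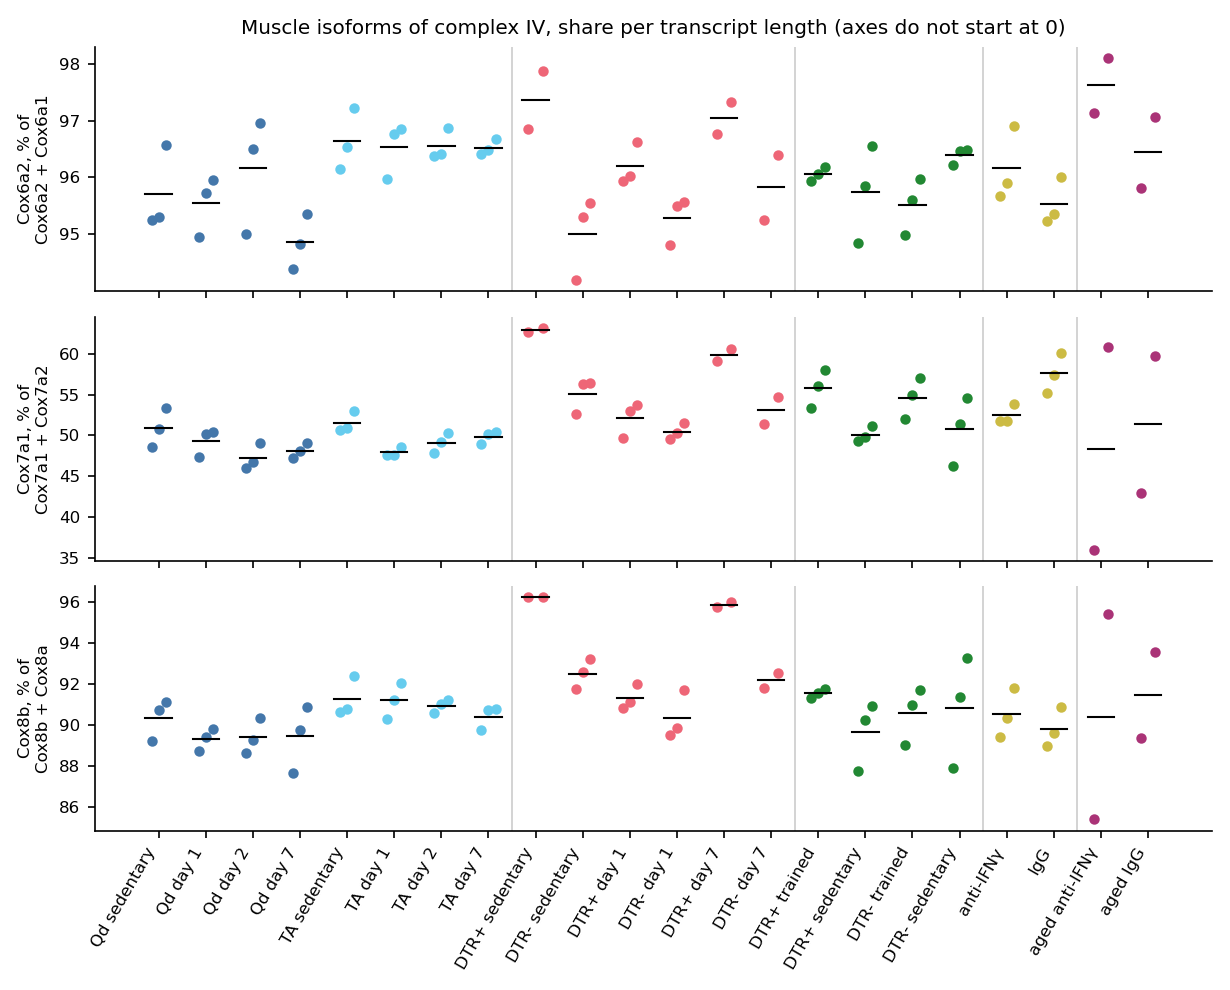
Share per transcript length, in percent, of the muscle isoform in each pair of complex IV isoforms (Cox6a2, Cox7a1 and Cox8b) for each of the 61 libraries (points) with group means (lines). Cox7a1 is highest in sedentary DTR+ mice of the acute experiment, at a mean of 63.0%.

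The member counts divided between the complexes as follows. In sedentary wild-type quadriceps complex II took 9.74%, complex III 21.2%, complex IV 20.5% and complex V 48.1% of the CPM on the 46 genes, and in sedentary TA 9.61, 21.1, 20.2 and 48.7% in the same order. In sedentary mice of the acute experiment complex IV took 29.2% in DTR+ and 23.0% in DTR- libraries, and complex V 40.2% in DTR+ and 43.1% in DTR- libraries. At day 1 complex IV took 20.8% in DTR+ and 21.1% in DTR- libraries. In the training experiment complex IV took 20.2 to 25.2% in sedentary DTR+ libraries, and 21.3% at most in the other training groups.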

How the data were processed

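RNA from frozen whole muscle was sequenced by the ImmGen ultra-low-input protocol from 2 ng of RNA per library, per the labels' protocols. The deposited values are raw counts per gene for 61 libraries, made by the authors with STAR 2.7.3a and featureCounts on mm10, per the submitters' processing notes. How the strand and reads with several matches were treated is not given in the sources used here. The members and all gene lists were chosen with earlier results of these data known.

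Each experiment was fitted on its own with edgeR 4.0.16 (limma 3.58.1, R 4.3.3): genes were kept by filterByExpr (minimum count 10, minimum total 15), scaled by TMM, and tested by the quasi-likelihood F test with Benjamini-Hochberg adjustment over all genes kept, with 0.05 as the threshold. All 46 members passed the filter in every fit. The 22 groups gave 21 comparisons of group pairs and 6 tests of a difference between responses. The SE of a fold change was taken from the F statistic. Backgrounds are shares of all genes at the adjusted threshold or with non-overlapping groups, and none was computed for an unadjusted p. Transcript lengths and GC content came from GENCODE vM21, which matched 53343 of 55011 symbols, 407 by an older name. The length of a gene is the lower median over its transcripts tagged as principal in the annotation. Genes with no such transcript used all of their transcripts in the basic annotation. This rule was set after seeing the lengths. In the fit with the trend removed, each library's trend of non-member counts on log length and GC (natural splines, 5 degrees of freedom) was taken out as an offset. Scripts were tested on simulated data.

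Members reported by value were a fixed list of subunits, plus in each comparison the 6 called members with the smallest adjusted p and those called against the majority. From the other lists, the 3 called genes with the smallest p are named. Also chosen after seeing the data were the split at 1000 bases, the non-overlap counts, the printed promoters and the fits in sensitivity settings named so. In the wild-type mice equal numbers mark the same animal per the labels, so the muscles are paired, and the deviations of such pairs correlated at -0.016 to 0.041 across genes. Other alternatives were DESeq2 1.42.0, median-ratio size factors, no filter, only the groups compared, a replicate block and leaving out each library. Shares and levels at these depths, 3359683 to 14445336 counts, carry counting error besides the spread between libraries.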

Additional observations from a re-analysis of the deposited data

Results flagged for a closer look

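The response at day 1 after acute exercise differed between the genotypes by a test of the difference itself, which is why these values are listed. Of the 46 members, 33 were called in that test, 31 lower and 2 higher, where 6.54% of all genes were lower and 8.8% higher. The response was lower in DTR+ than in DTR- mice by -1.85 on the log2 scale for Cycs, -1.61 for Cox7a1, -1.48 for Uqcr10, -1.35 for Cox6a2, -1.28 for Atp5j and -1.19 for Uqcr11. It was higher by 0.77 for Atp5d and by 0.62 for Cyc1. With the length and GC trend removed 22 members were called, all lower, and Atp5d and Cyc1 were not among them. The sedentary DTR+ libraries, which enter this test, also hold the largest share of short and mitochondrial transcripts in the acute experiment, and the part of that in the difference was not tested.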

How the results depend on the processing

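Limits are set mostly by 2 to 3 libraries per group and by library content. Except where given above, the shares of all genes called under other settings are not listed, so the counts below describe the members alone. For sedentary quadriceps against TA, where 15 members were called, DESeq2 called 25, the fit without a filter 9, the fit with the length and GC trend removed 9, and leaving out a library 5 to 13. For trained against sedentary DTR+ mice, where 0 were called, DESeq2 called 2, no filter 2, the trend-removed fit 3, and leaving out a library 0 to 33, the highest without sedentary DTR+ replicate 2. For day 7 against rest in DTR- mice, and for the difference between genotypes at day 7, leaving out a library gave 0 to 1, with 1 without DTR- day 7 replicate 3. Cox7a2l in DTR+ mice at day 1 against rest reversed to 0.13 (adjusted p = 0.54) with the trend removed, from -0.37, and the cause was not tested. Leaving out a library gave 34 to 37 calls for quadriceps against TA over all days, 32 to 36 and 31 to 34 for DTR+ against DTR- mice at rest and day 7, 39 to 40 and 25 to 33 for day 1 against rest in DTR+ and DTR- mice, and 26 to 33 for the difference at day 1. With the replicate number as a block, sedentary quadriceps against TA gave 16 calls and all days 36, the acute comparisons 34 at rest, 34 at day 7, 40 and 31 at day 1 against rest in DTR+ and DTR- mice and 32 for the difference. The block left every comparison with 0 calls at 0. In the acute, training and antibody experiments the correlations of libraries with equal numbers were -0.134 to 0.113. The known wild-type pairs gave only -0.016 to 0.041, so this measure cannot tell whether the numbers pair the libraries. In the aged libraries both were -0.652, and a crossed pairing, added after seeing the data, called 0.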

Other observations

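Of 12 regulators of respiratory genes, 6 were higher and 1 lower at day 1 than at rest in DTR+ mice of the acute experiment, where 24.3% of all genes were called higher and 18.1% lower. Those with the smallest p were Yy1 at -1.40 (adjusted p = 0.000157), Nrf1 at 1.13 (adjusted p = 0.00145) and Esrrg at 1.97 (adjusted p = 0.0033). In DTR- mice edgeR called 0 of 12, and 4 had an unadjusted p under 0.05. Of 33 assembly factors, 20 were lower and 3 higher in DTR+ mice, and 13 were lower and 2 higher in DTR- mice, where 8.24% of all genes were lower and 8.16% higher. These counts are from the fit with no length or GC trend removed, and the part of library content in them was not tested.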
